A study of Homo sapiens with 9 samples.

Results

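AP-1 and the immediate early genes were examined as 10 genes, taken by symbol from a table of 56809 genes: FOS, FOSB, FOSL1 and FOSL2 of the FOS family, JUN, JUNB and JUND of the JUN family, and EGR1, ATF3 and IER3. All 10 were present in the table and all 10 passed the filter on low counts. The tests ran over 14709 genes. The libraries were bulk polyadenylated RNA from MDA-MB-468, an established human breast adenocarcinoma line. There were 3 groups of 3 libraries. Control cells carried the empty lentiviral vector pSicoR, and the other groups carried pSicoR with the short hairpin RNA shLMO2-1 or shLMO2-2, both aimed at LMO2, which encodes a LIM-domain cofactor of transcription complexes. The control vector held no hairpin, no group with a hairpin of another target was analysed here, and the labels do not say whether the 3 libraries of a group came from separate cultures. The p-values therefore measure only the spread between these libraries, which may be technical.

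AP-1 is a transcription factor made of paired basic leucine zipper (bZIP) proteins. JUN proteins pair with each other, with FOS proteins or with ATF proteins, while FOS proteins need a partner of another family, and the pairs bind short palindromic DNA sites. Immediate early genes are switched on within minutes of a growth factor or a stress, with no need for new protein, largely through ERK, JNK and p38 kinases acting on factors already present, such as SRF and ELK1. In basal-like breast cancer lines AP-1 is known for its ties to EGFR and ERK signalling, and FOSL1 is often the abundant FOS protein of invasive cells.

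Short sites in promoters are shown first because binding sites for these same factors, or for SRF, are a known feature of several of the genes. Promoter windows from RefSeq (GRCh38.p14) ran from 250 bases before to 50 after a start, and 8 of the 10 genes had one. Each line below is 30 bases, 5′ to 3′ on the gene's strand, with the motif in capitals. The motifs searched on both strands were the AP-1 site TGACTCA, the cyclic-AMP response element (CRE) TGACGTCA, the CRE-like site TGACATCA and the CArG box bound by SRF. The CRE-like letters were chosen after the JUN and ATF3 windows had been read. None of the first 3 motifs contains another, and none overlaps a CArG box in the windows shown.

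JUN, CRE-like site, chr1:58784096-58784125, minus strand: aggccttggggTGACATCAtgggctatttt

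ATF3, CRE-like site, chr1:212565273-212565302, plus strand: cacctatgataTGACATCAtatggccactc

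JUND, CRE, chr19:18281804-18281833, minus strand: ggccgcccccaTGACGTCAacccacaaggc

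EGR1, first CArG box, chr5:138465364-138465393, plus strand: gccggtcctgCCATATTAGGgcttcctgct

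EGR1, second CArG box, chr5:138465386-138465415, plus strand: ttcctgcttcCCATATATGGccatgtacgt

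FOSL2, AP-1 site, chr2:28392851-28392880, plus strand: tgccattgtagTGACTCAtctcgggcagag

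In GENCODE 29 the JUN site lay in the untranslated part of the single JUN exon. The FOSL2 site lay in an untranslated exon of FOSL2 and inside FLJ31356 on the opposite strand. The JUND, EGR1 and ATF3 sites overlapped no annotated gene. Counted over 35116 RefSeq windows of 300 bases, the AP-1 site was in 4.95%, the CRE in 1.85%, the CRE-like site in 2.61% and the CArG box in 1.29%. The windows of FOS, FOSB and JUNB and a second, downstream window of ATF3 held none of these letters. A match describes the sequence and is not evidence of binding, nor a cause of a level.

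Library totals ran from 15494486 to 23069456 estimated counts, with the 3 shLMO2-2 libraries the deepest, and mitochondrial genes took 1.33% to 1.79%. LMO2 itself was sparse, at 4, 35 and 19 counts in control, 2, 1 and 6 with shLMO2-1 and 1, 4 and 3 with shLMO2-2. Its log2 fold change was −2.44 (adjusted p = 0.0907) for shLMO2-1 and −3.02 (adjusted p = 0.0441) for shLMO2-2, and control replicate 1 lay inside the shLMO2-1 range. Control replicate 1 also stood apart from the other controls over all genes, with a chi-square per gene of 25.2 and 17.2 against them, where those 2 differed by 6. All 9 epithelial markers were measured and their summed level was 15400 to 16000 CPM (counts per 1000000) in control, 17400 to 18700 with shLMO2-1 and 17000 to 19100 with shLMO2-2. Endothelial, leukocyte and fibroblast markers summed to between 5.45 and 17.7 CPM per list in every library, and EMCN, CD3E, COL3A1 and LUM were at 0 throughout. Of the leukocyte list, 2 of 3 tested genes were called higher in the mean of both hairpins (CD14 by 1.21 and CD68 by 1.32 on the log2 scale), and its sum was 5.45 to 7.77 CPM in control, 8.5 to 13 with shLMO2-1 and 7.82 to 9.78 with shLMO2-2. Of the epithelial list, 4 of 9 were called higher: KRT8, KRT18, KRT19 and EGFR. Beside these counts, 6.47% of all tested genes were called higher. KRT18 (edgeR adjusted p = 0.142) and KRT19 (0.175) were not called with shLMO2-1 alone, nor EGFR with shLMO2-2 alone (0.414). KRT7 (0.14), KRT17 (0.01), EPCAM (−0.12), CDH1 (−0.12) and KRT5 (−0.1) were not called in the mean. With shLMO2-1 alone KRT5 was called lower, at −0.27 (adjusted p = 0.0272). The part of these shifts in the levels below was not tested, and in bulk RNA fewer cells of a type and less RNA per cell cannot be told apart.

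ATF3 and JUN fell with both hairpins, and none of the other 8 genes passed the test in either direction. Here a gene is called when edgeR's quasi-likelihood test gives an adjusted p under 0.05 over all 14709 genes. With shLMO2-1, 2 of 10 were called, against 8.42% of all tested genes (4.54% higher and 3.88% lower). With shLMO2-2, 2 of 10 were called, against 8.97% (4.94% higher and 4.04% lower). In the mean of both hairpins it was 2 of 10, against 12.4%. The same 2 genes were called lower in each hairpin's own comparison, as were 2.03% of all tested genes. At 2 of 10, the share is above the background but rests on 2 genes. The median log2 fold change of the 10 was −0.12 with shLMO2-1 and −0.09 with shLMO2-2, beside 0.001 and 0 over all tested genes. Leaving out 1 library moved these medians: the first was 0.013 without control replicate 1 and −0.033 without shLMO2-1 replicate 1, and the second −0.215 without control replicate 3 and −0.166 without control replicate 2. Both comparisons use the same 3 control libraries.

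**Figure D1:**
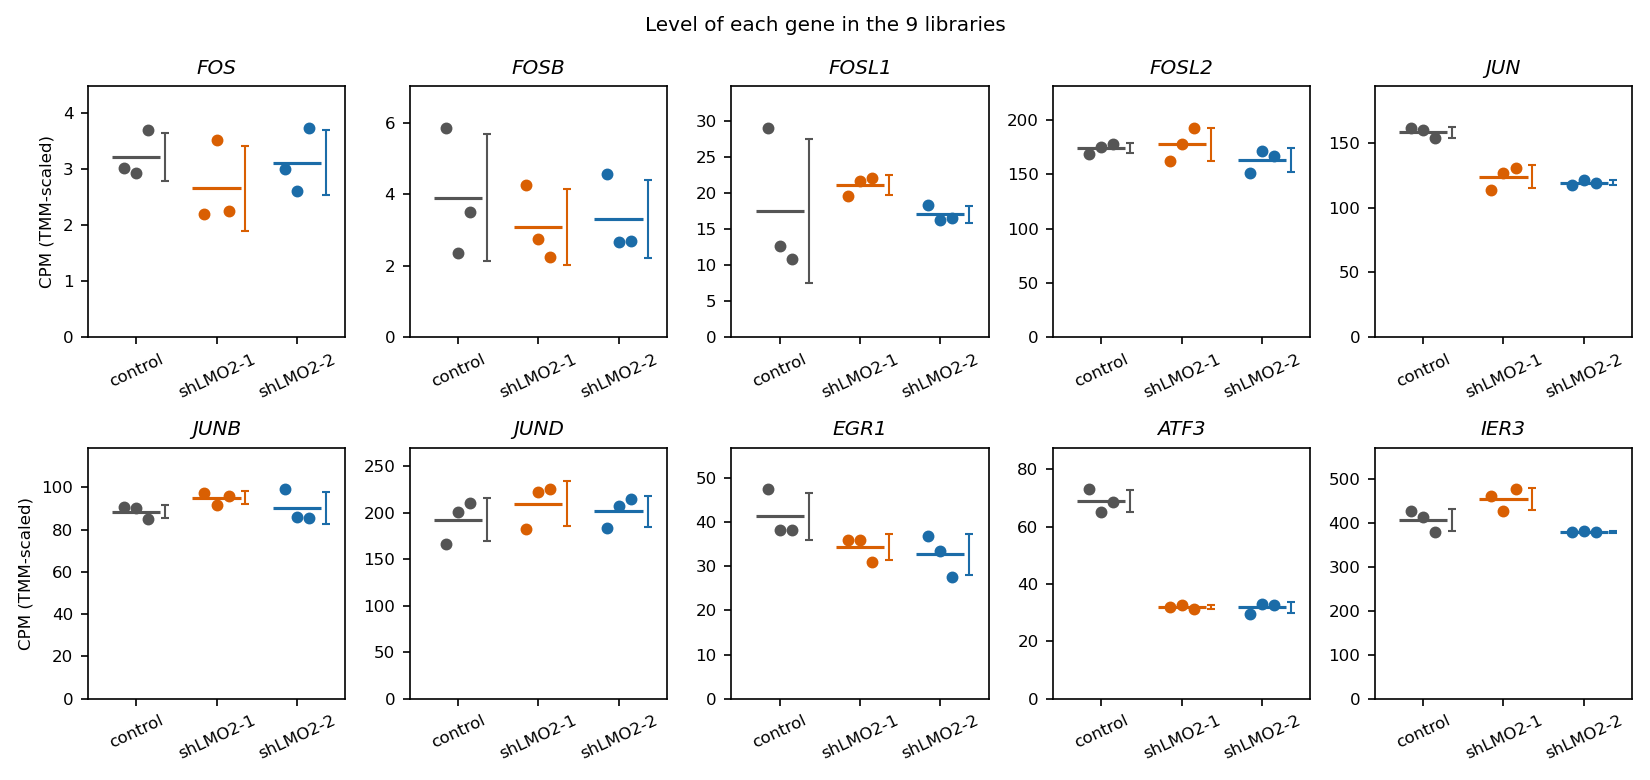
Level of each of the 10 genes in the 9 libraries, as TMM-scaled CPM on a linear axis from 0. Points are libraries, horizontal bars are group means and vertical bars are the SD of 3 libraries. The 6 hairpin libraries of ATF3 lie between 29.6 and 33.1 and those of JUN between 114 and 131, below every control, while control replicate 1 of FOSL1 stands at 29.

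ATF3 encodes a bZIP factor induced by many stresses, which can pair with JUN proteins and often represses its targets. The gene lies at chr1:212565334-212620777 on the plus strand in GENCODE 29 (GRCh38). Levels are given as CPM after scaling by the trimmed mean of M-values (TMM). ATF3 stood at 73, 65.1 and 68.7 CPM in control, at 31.9, 32.8 and 31.4 with shLMO2-1, and at 29.6, 33.1 and 32.8 with shLMO2-2. Every hairpin library was below every control library, and the 2 hairpin groups overlapped. The group means were 69 ± 3.96, 32.1 ± 0.722 and 31.9 ± 1.94 CPM (SD, n = 3 each).

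For ATF3 the log2 fold change was −1.11 (SE 0.0765, 95% interval −1.28 to −0.94, adjusted p = 3.33e-05) with shLMO2-1 and −1.11 (SE 0.0758, 95% interval −1.28 to −0.94, adjusted p = 2.43e-05) with shLMO2-2. ATF3 fell 2.16-fold in the mean of both hairpins (adjusted p = 5.02e-06). By p-value it ranked 6 of 14709 genes with shLMO2-1 and 8 with shLMO2-2. The difference between the hairpins was −0.01 (95% interval −0.18 to 0.16, adjusted p = 0.985), so a difference above 0.18 lies outside the interval. Over 18 other settings the log2 fold change stayed between −1.16 and −1.07 in the 2 comparisons and the gene was called in all of them.

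JUN, the founding member of AP-1 and the main JNK substrate, lies at chr1:58780788-58784327 on the minus strand as a single exon. It stood at 162, 160 and 154 CPM in control, at 114, 127 and 131 with shLMO2-1, and at 118, 122 and 119 with shLMO2-2. All 6 hairpin libraries were again below all 3 controls, and the hairpin groups overlapped. The means were 159 ± 4.32, 124 ± 9.17 and 120 ± 2.49 CPM (SD, n = 3 each). JUN fell by 0.36 on the log2 scale with shLMO2-1 (SE 0.0661, adjusted p = 0.0091) and by 0.41 with shLMO2-2 (SE 0.0658, adjusted p = 0.00452), a 1.3-fold reduction in the mean of both. The hairpins differed by −0.05 (95% interval −0.20 to 0.10, adjusted p = 0.878). Across the other settings the fall was between −0.46 and −0.30 and was called in each.

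JUNB and JUND, the other JUN family genes, passed no test. JUNB, which is often an antagonist of JUN in proliferation, lies at chr19:12791496-12793315 and overlaps HOOK2 on the opposite strand, so its counts are uncertain where strand was not used. Its levels were 90.6, 90.2 and 84.9 CPM in control, 97.6, 91.8 and 95.9 with shLMO2-1, and 99.1, 86 and 85.5 with shLMO2-2. The 3 shLMO2-1 libraries were above the controls, but the log2 fold change of 0.10 had a 95% interval of −0.06 to 0.26 (adjusted p = 0.424). With shLMO2-2 it was 0.03 (95% interval −0.13 to 0.19), with overlapping groups.

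JUND, the JUN family gene with the most constitutive expression, lies at chr19:18279760-18281622 on the minus strand. It stood at 166, 201 and 210 CPM in control, at 182, 222 and 225 with shLMO2-1, and at 183, 207 and 215 with shLMO2-2. Groups overlapped, and the library labelled replicate 1 was the lowest in each. The log2 fold change was 0.12 (95% interval −0.12 to 0.36) and 0.07 (95% interval −0.17 to 0.31) for shLMO2-1 and shLMO2-2.

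Per length, JUN made up less of the JUN family in both hairpin groups. Levels were divided by the length of the principal GENCODE transcript (CPM per kb) to compare genes. JUN took 22.8% ± 1.74 of the family's CPM per kb in control (SD, n = 3), 17.5% ± 0.0733 with shLMO2-1 and 17.7% ± 0.459 with shLMO2-2. The control libraries ran from 21.4% to 24.8% and the 6 hairpin libraries from 17.1% to 17.9%, with no overlap. JUND was the largest part, at 52.4%, 56.2% and 56.4%, and JUNB held 24.8%, 26.3% and 25.9%. The family total was 197 ± 10.4, 200 ± 14.4 and 191 ± 5.23 CPM per kb (SD, n = 3), within the spread of the libraries. These shares are a description of genes already given above and were not tested.

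**Figure D2:**
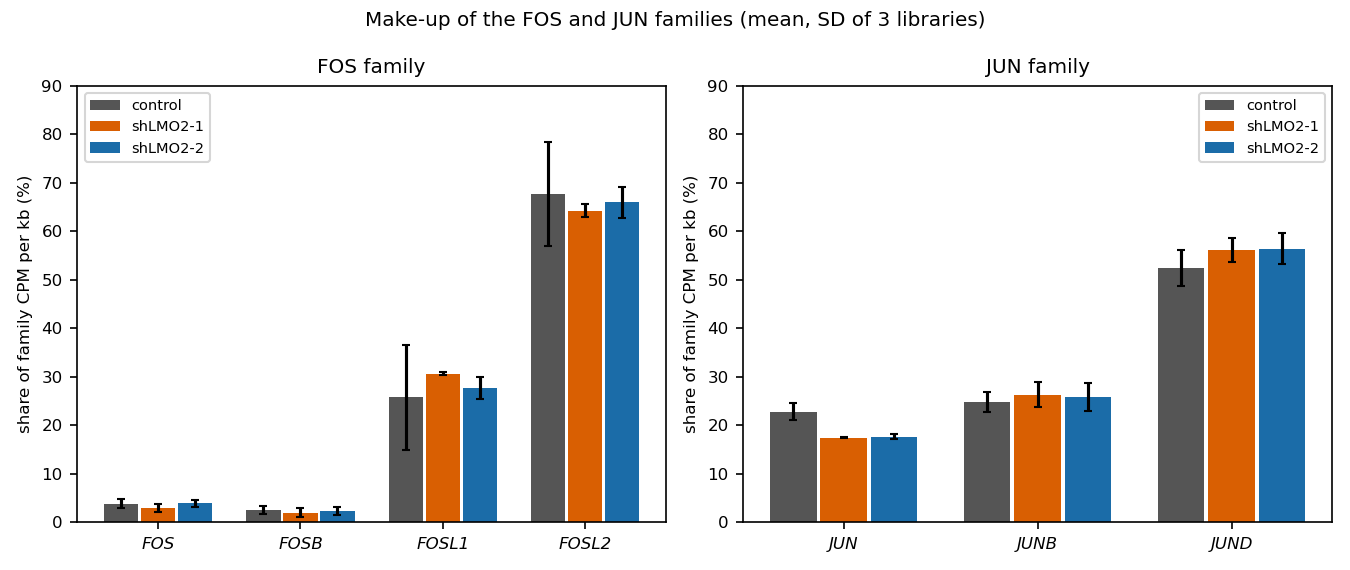
Share of each gene in the summed CPM per kb of its family, in percent on an axis from 0, with bars for group means and error bars for the SD of 3 libraries. JUN falls from 22.8% in control to 17.5% and 17.7%, while the FOS family is led by FOSL2 in all 3 groups with a wide control spread for FOSL1.

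The FOS family was led by FOSL2 and FOSL1, with FOS and FOSB near the low end of what was measured. FOSL2, which encodes FRA-2, lies at chr2:28392448-28417312 and overlaps FLJ31356 on the opposite strand and AC104695.3 on the same strand. Its levels were 169, 175 and 178 CPM in control, 162, 178 and 193 with shLMO2-1, and 151, 172 and 167 with shLMO2-2. The groups overlapped, and the log2 fold changes were 0.03 (95% interval −0.14 to 0.20) and −0.09 (95% interval −0.26 to 0.08). Per length, FOSL2 held 67.7% ± 10.7, 64.3% ± 1.41 and 66% ± 3.24 of the family (SD, n = 3).

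FOSL1, which encodes FRA-1 and is a transcriptional readout of ERK signalling, lies at chr11:65892049-65900573 on the minus strand. It was at 29, 12.6 and 10.8 CPM in control, at 19.5, 21.7 and 22.1 with shLMO2-1, and at 18.3, 16.2 and 16.5 with shLMO2-2. Control replicate 1 was above every other library, and the other 2 controls were below all 6 hairpin libraries. With all 9 libraries the log2 fold change was 0.28 (SE 0.289, adjusted p = 0.612) for shLMO2-1 and −0.03 (SE 0.288, adjusted p = 0.96) for shLMO2-2, neither called.

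Without control replicate 1, FOSL1 was called higher in both comparisons, by 0.84 (adjusted p = 0.00191) and 0.53 (adjusted p = 0.0212), and by 0.69 in the mean of both (adjusted p = 0.00306). Over all 18 other settings the adjusted p of that mean ran from 0.00306 to 0.902. The mean was −0.07 without control replicate 2 and −0.13 without control replicate 3, so the direction for FOSL1 rests on which controls are kept. All 3 shLMO2-2 libraries of FOSL1 were below all 3 of shLMO2-1. The log2 difference was −0.31 (95% interval −0.94 to 0.32, adjusted p = 0.801), with the error taken from all 9 libraries, control included. Without control replicate 1 it was also −0.31 (adjusted p = 0.197), not called.

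FOS, the transiently induced prototype of the family, lies at chr14:75278774-75282230. It had 34 to 83 counts per library: 3.01, 2.92 and 3.7 CPM in control, 2.19, 3.52 and 2.24 with shLMO2-1, and 3, 2.6 and 3.73 with shLMO2-2. Its groups overlapped, and the log2 fold changes of −0.28 (95% interval −0.83 to 0.27) and −0.05 (95% interval −0.58 to 0.48) passed no test.

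FOSB, a second transiently induced member, lies at chr19:45467995-45475179 and overlaps ERCC1 on the opposite strand. With 34 to 105 counts per library it stood at 5.86, 2.36 and 3.49 CPM in control, 4.27, 2.75 and 2.24 with shLMO2-1, and 4.57, 2.65 and 2.7 with shLMO2-2. The library labelled replicate 1 was the highest in every group. The log2 fold changes were −0.32 (95% interval −1.13 to 0.49) and −0.23 (95% interval −1.02 to 0.56), and both turned positive without control replicate 1, to 0.08 and 0.17.

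EGR1 encodes a zinc finger factor that is among the fastest responders to growth factors, and its window above holds a pair of CArG boxes. The gene lies at chr5:138465490-138469315. EGR1 stood at 47.5, 38.3 and 38.3 CPM in control, at 36, 36.1 and 30.9 with shLMO2-1, and at 36.9, 33.6 and 27.7 with shLMO2-2. All 6 hairpin libraries were below all 3 controls, but the gap to the nearest control was small. The log2 fold change was −0.27 (SE 0.125, adjusted p = 0.222) with shLMO2-1 and −0.34 (SE 0.124, adjusted p = 0.118) with shLMO2-2. In the mean of both hairpins it was −0.30 (SE 0.107, 95% interval −0.54 to −0.06, adjusted p = 0.0895), which was not called. Without the filter on low counts that mean was called (adjusted p = 0.0249), and over the 18 settings its adjusted p ran from 0.0111 to 0.261.

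IER3, an early response gene linked to survival under stress, was the most abundant of the 10 and the one where the hairpins lay farthest apart relative to their error. It lies at chr6:30743199-30744554 on the minus strand and overlaps IER3-AS1 on the opposite strand. Levels were 426, 414 and 378 CPM in control, 461, 427 and 476 with shLMO2-1, and 378, 381 and 378 with shLMO2-2. The shLMO2-1 libraries were above all controls, but by a small gap, from 426 CPM to 427 CPM. The shLMO2-2 libraries sat near the lowest control. The log2 fold change was 0.16 with shLMO2-1 (SE 0.0619, adjusted p = 0.133). With shLMO2-2 it was −0.10 (SE 0.0618, adjusted p = 0.36), and neither was called.

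**Figure D3:**
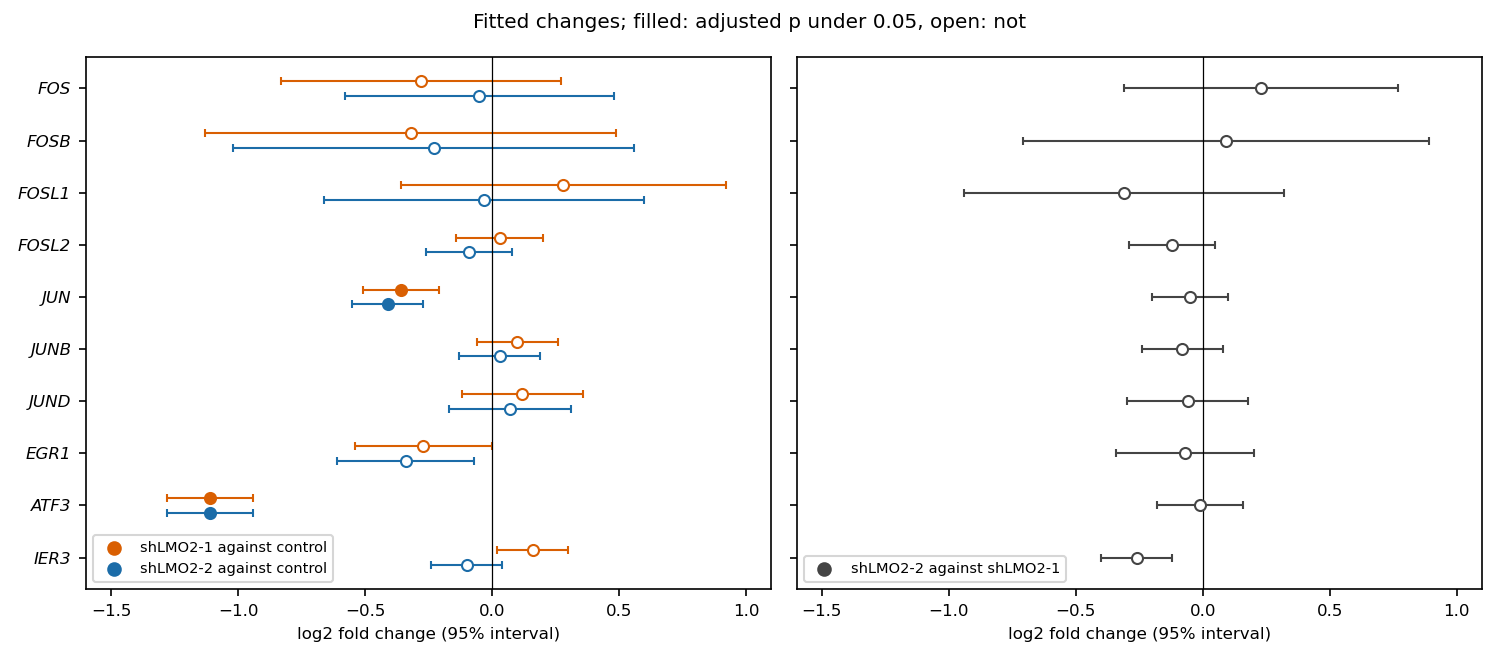
Fitted log2 fold changes with 95% intervals for the 10 genes. The left panel shows each hairpin against control and the right panel shLMO2-2 against shLMO2-1. Filled points passed an adjusted p of 0.05, which on the left are ATF3 at −1.11 in both comparisons and JUN at −0.36 and −0.41, and on the right are none.

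Between the hairpins, 0 of 10 genes were called by edgeR, against 0.768% of all tested genes, and 1 of 10 had an unadjusted p under 0.05. That gene was IER3, with a log2 difference of −0.26 for shLMO2-2 against shLMO2-1 (SE 0.0619, 95% interval −0.40 to −0.12, adjusted p = 0.101). All 3 shLMO2-2 libraries were below all 3 of shLMO2-1. IER3 was called by DESeq2 (adjusted p = 0.00912) and, in edgeR, without control replicate 1 (adjusted p = 0.0415), within a range of 0.00912 to 0.326 over the 18 settings. Intervals for the other 9 genes all included 0. They were narrow for ATF3 and JUN, and for FOSB they ran from −0.71 to 0.89.

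Groups that do not overlap were more common than calls. With shLMO2-1, 5 of 10 genes (ATF3, JUN, EGR1, JUNB and IER3) had every hairpin library on one side of every control, against 28.3% of all tested genes. With shLMO2-2, 3 of 10 (ATF3, JUN and EGR1) did, against 29.9%, which is near the background. In the 6 hairpin libraries against the 3 controls it was the same 3 genes, against 16.7%, and between the hairpins it was 2 of 10 (FOSL1 and IER3), against 18.1%.

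The spread between libraries of a group differed widely among the 10 genes. The within-group SD of log2 CPM was 0.069 for JUN, 0.0696 for IER3, 0.0726 for ATF3 and 0.0801 for JUNB, each smaller than the 0.156 median of all tested genes. It was 0.519 for FOSB, 0.446 for FOSL1 and 0.279 for FOS. The FOSL1 spread lay in control, where the SD was 57.4% of the mean CPM, beside 6.71% with shLMO2-1 and 6.42% with shLMO2-2. For FOSB, 91.4% of tested genes had a smaller SD, and for JUN 10.9% did. The called genes were thus among the least variable, and the most variable ones carried the widest intervals.

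**Figure D4:**
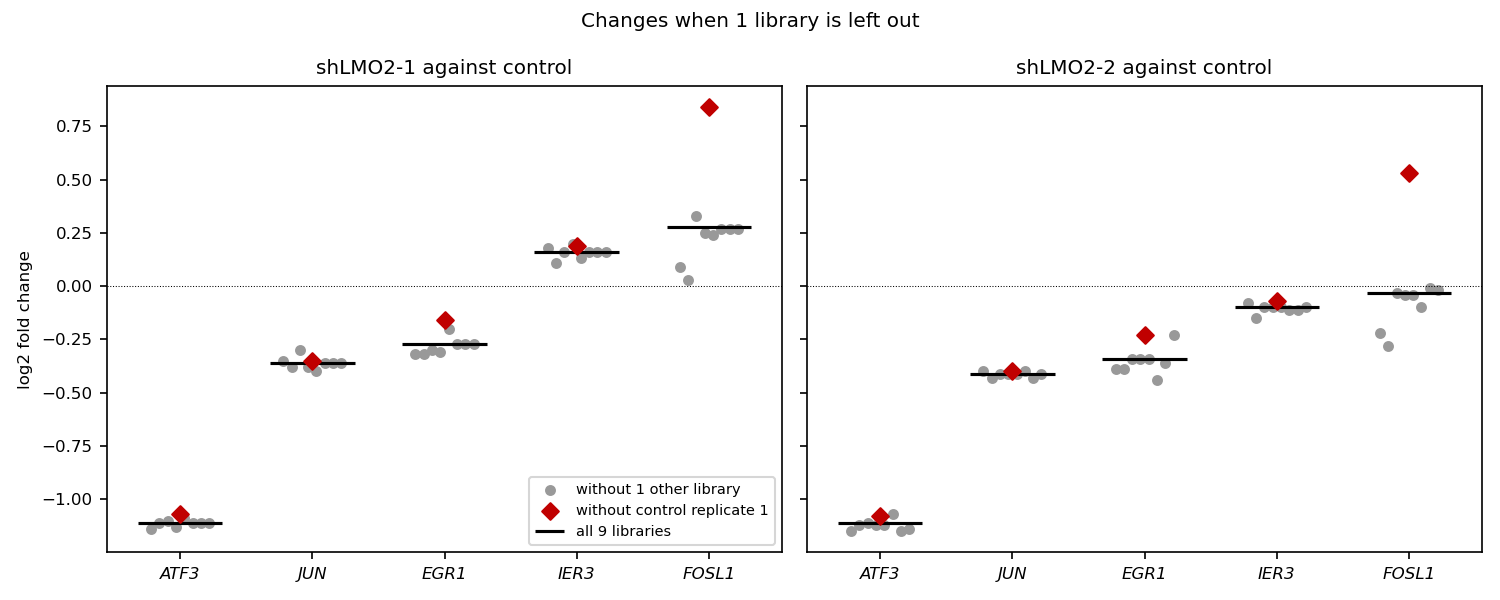
Log2 fold change against control of 5 genes when 1 of the 9 libraries is left out, with diamonds for control replicate 1, circles for each other library and horizontal bars for all 9 libraries. ATF3 and JUN stay close to their bars, while FOSL1 moves to 0.84 and 0.53 without control replicate 1.

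In order of CPM per kb in control, IER3 stood at 326, JUND at 103, JUNB at 48.6, JUN at 44.8, ATF3 at 33.9, FOSL2 at 25.9, EGR1 at 13.2, FOSL1 at 10.5, FOS at 1.49 and FOSB at 1.03. Neighbours that did not differ beyond their spread were EGR1 (SD 1.69) with FOSL1 (SD 6) and FOS (SD 0.197) with FOSB (SD 0.473). ATF3 dropped from the fifth place to the sixth in both hairpin groups, at 15.8 and 15.7 CPM per kb. The place of ATF3 depends on the length used: by the union of all its exons it stood at 17.1 CPM per kb in control, below FOSL2 at 24.3, and in the eighth place in both hairpin groups.

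Genes with the pattern most like that of JUN and ATF3 were sought among 11031 genes with a mean of at least 5 CPM. The measure was the root mean square difference of log2 CPM, centred on the control mean, over the 9 libraries. For JUN the nearest were RAB31, a small GTPase, at 0.0634 and VTA1, a factor of multivesicular body sorting, at 0.0739. For ATF3 they were STARD3NL, a late endosome protein, at 0.108 and AP3B2, an AP-3 adaptor subunit, at 0.122.

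Most other bZIP genes that can pair with FOS, JUN or ATF proteins passed no test. Of 26 listed, 23 were tested, and in the mean of both hairpins 2 were called higher, 2 lower and 19 neither, with a median log2 fold change of 0.01. All tested genes had a median of −0.002, with 6.47% called higher and 5.93% lower, so the list's 17.4% in all stands beside 12.4%. MAFF, a small MAF factor, fell from 31.9 ± 3.87 CPM in control to 24.8 ± 2.23 with shLMO2-1 and 20.3 ± 0.567 with shLMO2-2 (SD, n = 3), by 0.51 on the log2 scale (SE 0.089, adjusted p = 0.0051). With shLMO2-1 alone MAFF was not called (adjusted p = 0.0578). NFE2L3, a CNC-type bZIP factor, fell by 0.30 (adjusted p = 0.00878) and lost its call without control replicate 3 (adjusted p = 0.0544).

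ATF4, the effector of the integrated stress response and a known activator of ATF3, rose from 837 ± 46.1 CPM to 976 ± 60.6 and 974 ± 31.8 (SD, n = 3), by 0.22 (SE 0.0535, adjusted p = 0.0231). The adjusted p passed 0.05 on leaving out control replicate 1 (0.0637), control replicate 3 (0.0645) or shLMO2-2 replicate 2 (0.0543). JDP2, a JUN partner that represses AP-1, rose by 0.31 in the mean of both hairpins (adjusted p = 0.0403), but was not called with shLMO2-2 alone (adjusted p = 0.13). Leaving out any 1 library except shLMO2-1 replicate 3 ended the JDP2 call, with adjusted p from 0.0512 to 0.112. Without control replicate 1, 0 of the 23 were called higher and 3 lower. Of all 14972 genes tested in that fit, 797 were called higher and 795 lower.

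None of the genes upstream passed the test. The 25 kinases and factors of the ERK, JNK, p38 and SRF routes were all tested, among them MAPK8, MAPK14, SRF and ELK1, and 0 were called with either hairpin or in the mean of both. Calls over all tested genes were 8.42% with shLMO2-1, 8.97% with shLMO2-2 and 12.4% in the mean. The median log2 fold change of the 25 was 0.04 in that mean, beside −0.002 over all tested genes. SRF itself was at 0.10 (adjusted p = 0.412) and MAPK8, the JUN kinase JNK1, at −0.21 (adjusted p = 0.192). RNA levels say nothing of the phosphorylation by which these proteins act.

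Most calls among the other immediate early genes were lower. Of 50 listed, 46 were tested, and in the mean of both hairpins 11 were called lower and 2 higher, with a median of −0.16. In all, 28.3% of the tested list was called, against 12.4% of all tested genes (5.93% lower and 6.47% higher). The list held DUSP6 and SPRY2, the 2 genes called higher, which are feedback inhibitors of ERK signalling. None of their relatives in the list was called higher in that mean. DUSP1 was called lower, at −0.64 (adjusted p = 0.0324). DUSP2 at 0.2, DUSP4 at 0.05, DUSP5 at 0.19 and SPRY4 at 0.21 had the same sign as DUSP6 and SPRY2. They were not called (adjusted p from 0.175 to 0.807). DUSP6, an ERK phosphatase, rose from 5.57 ± 0.563 CPM to 10.9 ± 0.534 and 7.83 ± 0.698 (SD, n = 3), by 0.73 (SE 0.118, adjusted p = 0.00324). SPRY2 rose by 0.37 in the mean of both (adjusted p = 0.0249), but was not called with shLMO2-2 alone (adjusted p = 0.105). In the mean, 4 libraries ended its call when left out: control replicate 1 (0.0652) and 2 (0.0709), and shLMO2-2 replicate 2 (0.0605) and 3 (0.0541).

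Among the genes called lower, CTGF, a matricellular protein also known as CCN2, fell from 30.1 ± 4.21 CPM to 13.5 ± 0.683 and 8.33 ± 0.362 (SD, n = 3), by 1.5 on the log2 scale (SE 0.0944, adjusted p = 1.04e-05). KLF6, a zinc finger factor, fell by 0.48 (SE 0.0589, adjusted p = 0.000765). BTG1, an antiproliferative gene, fell by 0.45 (SE 0.0551, adjusted p = 0.000707). Each had all 6 hairpin libraries below all 3 controls. Without control replicate 1, 9 of 46 were called lower and 2 higher, and the median was −0.07. Of all 14972 genes tested in that fit, 795 were called lower and 797 higher.

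EGR3 and EGR4, relatives of EGR1, were named after their values were seen. EGR4 had 10.6, 3.74 and 4.44 CPM in control, 1.52, 1.11 and 1.32 with shLMO2-1, and 2.04, 1.81 and 1.12 with shLMO2-2, with no overlap between control and hairpins. It fell by 2.07 on the log2 scale in the mean of both (SE 0.325, adjusted p = 0.00277), and fell by 1.47 without control replicate 1, its highest library (adjusted p = 0.00516). EGR3 had 4.93, 2.2 and 1.8 CPM in control and 0.996 to 1.74 CPM in the 6 hairpin libraries. It fell by 1.18 in the mean of both (SE 0.325, adjusted p = 0.0369), but was not called with shLMO2-1 (adjusted p = 0.0956) or shLMO2-2 (adjusted p = 0.08) alone. In the mean it was at −0.63 without control replicate 1 and not called (adjusted p = 0.205). Nor was it called there without any 1 of 5 hairpin libraries, all but shLMO2-1 replicate 1 (0.0569 to 0.0808). EGR2, with 30 counts in all, did not pass the filter.

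Known AP-1 target genes also went both ways. Of 30 listed, 22 were tested, since the 6 matrix metalloproteinase genes, IL11 and SPP1 had 0 to 26 counts over all libraries. In the mean of both hairpins 5 were called higher and 4 lower, with a median of 0.16. These calls were 40.9% of the tested list, beside 12.4% of all tested genes (6.47% higher and 5.93% lower). S100A8, a calcium-binding protein, rose from 14.8 ± 4.02 CPM to 23.8 ± 3.61 and 40.7 ± 2.58 (SD, n = 3), by 1.06 (SE 0.152, adjusted p = 0.00171). FN1, which encodes fibronectin, rose by 0.53 (adjusted p = 0.00513) and ITGB4, an integrin subunit, by 0.37 (adjusted p = 0.00474). For FN1 the log2 fold change was 0.78 with shLMO2-1 (adjusted p = 0.00158) and 0.27 with shLMO2-2, which was not called (adjusted p = 0.131), and the hairpins differed by −0.51 (adjusted p = 0.0557). Without control replicate 1, 7 of 22 were called higher and 3 lower. Of all 14972 genes tested in that fit, 797 were called higher and 795 lower.

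Of the target genes called lower, EZR, a linker of membrane and actin, fell by 0.22 (adjusted p = 0.0209). VEGFA, an angiogenic growth factor, fell by 0.30 (adjusted p = 0.0235). CD44, a hyaluronan receptor, fell by 0.24 (adjusted p = 0.0294). With shLMO2-2 alone EZR (adjusted p = 0.0513), VEGFA (0.147) and CD44 (0.0936) were not called. With fewer libraries some of the calls in the mean of both hairpins were lost, while the fitted falls of EZR and VEGFA changed little. EZR was not called without control replicate 3 (0.0626). VEGFA missed the threshold on leaving out control replicate 2 (0.0562), control replicate 3 (0.0665) or shLMO2-2 replicate 3 (0.0502). CD44 was not called without shLMO2-1 replicate 1 (0.0544), shLMO2-1 replicate 3 (0.0574), shLMO2-2 replicate 1 (0.0566) or shLMO2-2 replicate 2 (0.0601). Without control replicate 1, CD44 was at −0.15 and still called (0.0428).

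Heat shock genes, some of which are induced by stress, were also measured, while stress in the cultures was not tested. Of 12 listed, 11 were tested, since HSPA6, with 11 counts in all, did not pass the filter. In the mean of both hairpins 0 were called higher and 3 lower, with a median of −0.06. Over all tested genes 5.93% were called lower. Without control replicate 1, 2 of the 11 were called lower and the median was 0.037. Of all 14972 genes tested in that fit, 795 were called lower. Their summed level was 5770 to 6420 CPM in control, 5370 to 5990 with shLMO2-1 and 5550 to 6030 with shLMO2-2. HSPH1, an HSP70 exchange factor, fell by 0.40 (adjusted p = 0.00933). HSPD1, the mitochondrial chaperonin, fell by 0.18 (adjusted p = 0.0172) and was not called without control replicate 2 (0.0532) or control replicate 3 (0.0676). With shLMO2-2 alone HSPD1 was not called (adjusted p = 0.233). DNAJA1, a co-chaperone, fell by 0.21 in the mean of both (adjusted p = 0.0391), but was not called with shLMO2-1 (0.0838) or shLMO2-2 (0.0824) alone. In the mean, 7 of the 9 libraries, all but shLMO2-1 replicate 1 and shLMO2-2 replicate 3, ended its call when left out (0.061 to 0.116). The part of this shift in the ATF3 and JUN values was not tested.

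**Figure D5:**
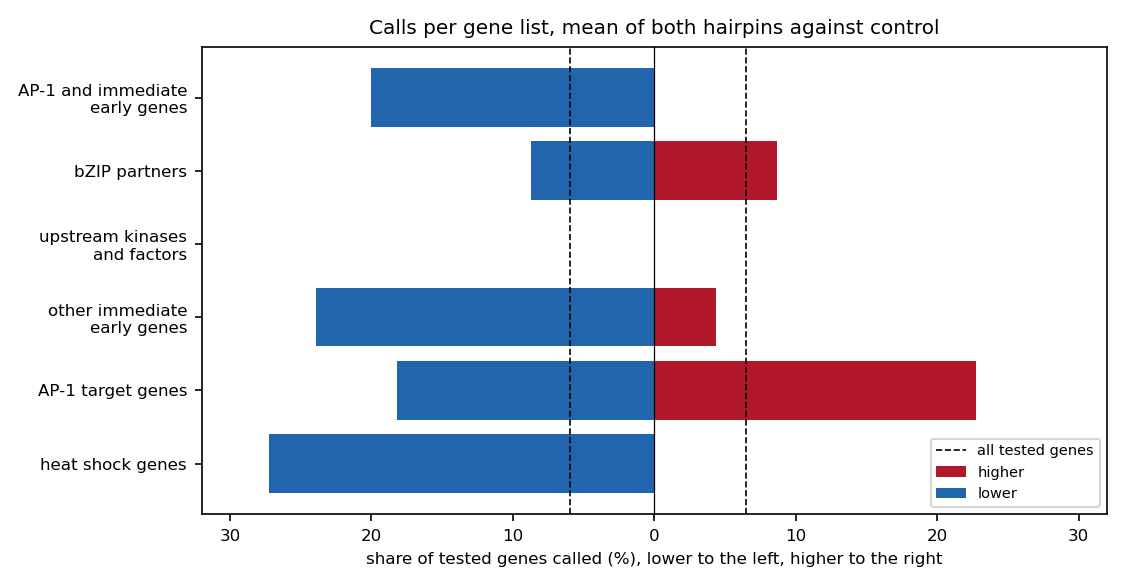
Share of the tested genes of each list called in the mean of both hairpins against control, in percent, with lower calls to the left and higher calls to the right of 0. Dashed lines mark all tested genes, at 5.93% lower and 6.47% higher. The 46 other immediate early genes have 11 calls to the left and 2 to the right, and the 25 upstream genes have none.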

How the data were processed

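Bulk RNA-seq of MDA-MB-468 gave 9 libraries, grouped by the plasmid in their labels. The values are estimated counts per gene symbol, deposited by the authors as 1 table. The submitters' processing notes name Salmon 0.12, DESeq2 1.22.2 and GRCh38.p12, while the annotation, the use of strand and the settings are not given in the sources used here. Estimated counts can divide reads among similar transcripts, so overlapping genes are uncertain. Counts were rounded, filtered with filterByExpr (minimum count 10, minimum total 15; 14708 genes kept, LMO2 added, 99.91% of counts), scaled by TMM and fitted with edgeR 4.0.16 (quasi-likelihood F-test, 3 groups, Benjamini-Hochberg over all tested genes) in R 4.3.3. SEs were derived from the F statistic and 95% intervals from its degrees of freedom. Alternatives used limma 3.58.1, DESeq2 1.42.0, other scalings and filters, fewer groups, a replicate block and leaving out each library. The script was tested on simulated data. No replicate pair was alike within sampling noise (chi-square per gene 4.79 to 25.2). Coordinates and lengths are from GENCODE 29 and promoter windows from RefSeq.

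The 10 genes and all lists were chosen with earlier results of these data known. Besides the 10, the text names from each list at most the 3 higher and 3 lower genes called in the mean of both hairpins, those of smallest p, and at most 2 genes of most similar profile per called gene. EGR2, EGR3, EGR4, marker genes and a few unchanged kinases were added after their values were seen. So were HSPA6 and the relatives of DUSP6 and SPRY2.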

Additional observations from a re-analysis of the deposited data

Results flagged for a closer look

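CTGF, from the list of other immediate early genes, differed between the 2 hairpins. Its level was 30.1 ± 4.21 CPM in control, 13.5 ± 0.683 with shLMO2-1 and 8.33 ± 0.362 with shLMO2-2 (SD, n = 3). All 3 shLMO2-2 libraries were below all 3 of shLMO2-1, and the log2 difference was −0.70 (SE 0.119, adjusted p = 0.0247 by edgeR). The difference stayed between −0.73 and −0.66 over 18 other settings. Leaving out any 1 of the 6 hairpin libraries ended its call, with adjusted p from 0.0667 to 0.142.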

How the results depend on the processing

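The 4 comparisons of the 10 genes gave 40 values, each recomputed under 18 alternatives. Of the 720 values 685 kept direction and side of the threshold, 8 kept direction and gained a call, and 27 changed sign, among them FOSL1 with shLMO2-2 without control replicate 1, which was then also called. ATF3 and JUN were called against control in all of them. The cause of the changes was not tested. With total counts only, FOSL2 with shLMO2-1 was −0.01, JUNB with shLMO2-2 −0.02 and IER3 in the mean −0.01. FOSL1 with shLMO2-2 was 0.13 with limma-voom and 0.03 with the replicate block. With upper-quartile scaling the ATF3 difference between hairpins was 0. The other changes of sign came from leaving out 1 library, over which the values ran as follows. Against control, with shLMO2-1, FOSB ran from −0.63 to 0.08 and FOSL2 from −0.03 to 0.1. With shLMO2-2, FOS ran from −0.2 to 0.07, FOSB from −0.55 to 0.17, FOSL1 from −0.28 to 0.53, JUNB from −0.05 to 0.06 and JUND from −0.04 to 0.13. In the mean, FOSB ran from −0.54 to 0.13, FOSL1 from −0.13 to 0.69, FOSL2 from −0.06 to 0, JUND from −0.01 to 0.16 and IER3 from −0.02 to 0.06. Between the hairpins, FOSB ran from −0.22 to 0.4, JUND from −0.15 to 0, EGR1 from −0.17 to 0.04 and ATF3 from −0.04 to 0.04. Control replicate 1 alone turned FOSB against control in all 3 comparisons, JUND with shLMO2-2 and in the mean, and FOSL1 with shLMO2-2.

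All tested genes gave 1239, 1320, 1823 and 113 calls (shLMO2-1, shLMO2-2, mean, hairpin difference). Fitting only the groups compared gave 695, 776 and, for the hairpin difference, 189. The hairpin difference had 378 calls without the filter and 316 with DESeq2, which called 1 of the 10 genes. Leaving out 1 library gave 546 to 1397, 494 to 1243, 947 to 1592 and 38 to 239 calls, and 2 to 3, 2 to 3, 2 to 3 and 0 to 1 of the 10 genes. The replicate numbers were not taken as pairs. Same-numbered libraries had correlations of deviations from −0.0635 to 0.296. The 3 pairs of replicate 2 were all under 0.1, while the pairs of replicates 1 and 3 ran from 0.14 to 0.296. Whether same-numbered libraries share an effect was not tested. With the replicate block, 2214, 2377, 3024 and 257 genes were called, and 2, 3, 3 and 0 of the 10. EGR1 was then called with shLMO2-2 (adjusted p = 0.0159) and in the mean (0.0111). FOS and FOSB had the fewest counts of the 10 genes, at 34 to 105 per library.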
